A study of Homo sapiens with 2 samples.

Results

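The VMP1 and MIR21 locus on the long arm of chromosome 17 held 17 of the 26022 peaks analysed, 11 of 15186 in solvent-treated and 6 of 10836 in inflachromene-treated PANC-1 cells. A peak was taken as a member when its summit lay inside VMP1 (hg38 chromosome 17, 59707654 to 59842255, 134602 bp) or within 50 kb of VMP1 or of the MIR21 hairpin (59841266 to 59841337). The members were chosen by the summit positions in both lists, and the locus itself was picked with earlier results of these lists in view, so all values below are descriptions and no test was made on them. The upstream limit was clear of peaks, with the nearest excluded DMSO summit 38005 bp beyond it at CLTC. At the downstream limit the last member lay 11252 bp past the end of VMP1, while a peak between the TUBD1 and RPS6KB1 starts missed the limit by 766 bp and was left out (18 fragments in DMSO and 16 in inflachromene).

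VMP1 encodes a multi-pass protein of the endoplasmic reticulum with lipid-scrambling activity that is needed for the formation of autophagosomes, and it was first described as a gene induced in the inflamed pancreas. MIR21 encodes microRNA-21, a small RNA that lowers the output of messenger RNAs carrying a match to its seed and that is abundant in many carcinomas, pancreatic ductal adenocarcinoma among them. The hairpin lies inside the annotated span of VMP1 near its 3′ end. Its primary transcript is known to start from a promoter of its own inside an intron of VMP1, and VMP1 transcripts that run past the usual end of the gene can carry the hairpin as well.

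The sequences below, from RefSeq (GRCh38.p14), show the product of the locus and the only other mature microRNA among 2370 in the table with the same seed, bases 2 to 8, in capitals. The hairpin is shown with the mature strand, bases 8 to 29, in capitals.
hsa-miR-21-5p: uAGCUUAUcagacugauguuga
hsa-miR-590-5p: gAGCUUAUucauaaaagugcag
MIR21 hairpin: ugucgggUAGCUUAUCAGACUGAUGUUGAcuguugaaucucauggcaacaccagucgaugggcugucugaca

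Binding was measured by ChIPmentation, in which chromatin held on an antibody is cut and tagged with sequencing adapters by the Tn5 transposase. PANC-1 is an established line from a human pancreatic ductal adenocarcinoma. One library came from cells given the solvent DMSO and 1 from cells given inflachromene, a small molecule that binds the chromatin proteins HMGB1 and HMGB2. What the antibody recognised, how much inflachromene was given and for how long is not stated in the sources used here. Both were fixed with 15 mM EGS, a long protein crosslinker, for 30 min and then with 1% formaldehyde for 10 min. With 1 library per treatment there was no replicate, and each difference compares these libraries rather than the treatments.

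Strength is given as the pileup, the number of fragments over the summit, which was solved together with the local background from the deposited fold enrichment and p-value of each peak. The fold enrichment is the caller's ratio of pileup plus 1 to background plus 1. Whether the caller was given a control library is not stated in the sources used here. The background was read, as an assumption, as the mean coverage of the same library in a 10 kb window around the summit, the peak itself included, and so as a measure of how much signal lies around a peak. Over all peaks the median pileup was 23 fragments in both lists, and the median background, in fragments per base, was 2.01 for DMSO and 2.09 for inflachromene. Brackets hold 95% intervals (exact Poisson for a pileup, exact binomial for a share or for the ratio of a pair of pileups). They cover counting error only. The inflachromene library was inferred to hold 0.964 times as many fragments as DMSO. This value is its lowest background, 1.05 times that of DMSO, divided by the ratio of the inferred fragment lengths.

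Peaks fell at 4 kinds of place along the locus, which the map of summit pileup shows. They were the shared start region of VMP1 and its neighbour PTRH2, the body of VMP1, a strong site upstream of the MIR21 hairpin, and a stretch beyond the 3′ end of VMP1. In DMSO 1, 4, 1 and 5 peaks lay there, and in inflachromene 1, 2, 1 and 2. Of the 11 DMSO peaks, 7 overlapped an inflachromene peak by at least 1 bp (63.6%, 30.8 to 89.1) and 4 did not (36.4%), against 35.5% of all DMSO peaks without an overlap. The share at the locus was thus near the background. The DMSO list is the longer one. When it was held to the length of the inflachromene list by p-value, 7 DMSO peaks of the locus remained, 6 of them with an inflachromene peak (85.7%). No share over all peaks is given for the shortened list, so 85.7% has no background here and cannot be set against the 35.5%. Inside VMP1 2 of 5 DMSO peaks had no overlap, against 48.3% of DMSO peaks inside protein-coding genes, and beyond its end 2 of 5, against 50.4% of DMSO peaks between genes and 23.8% of those at gene ends. All 6 inflachromene peaks overlapped a DMSO peak, against a background of 9.62% without an overlap. The members covered 3842 bp in DMSO and 3201 bp in inflachromene.

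**Figure D1:**
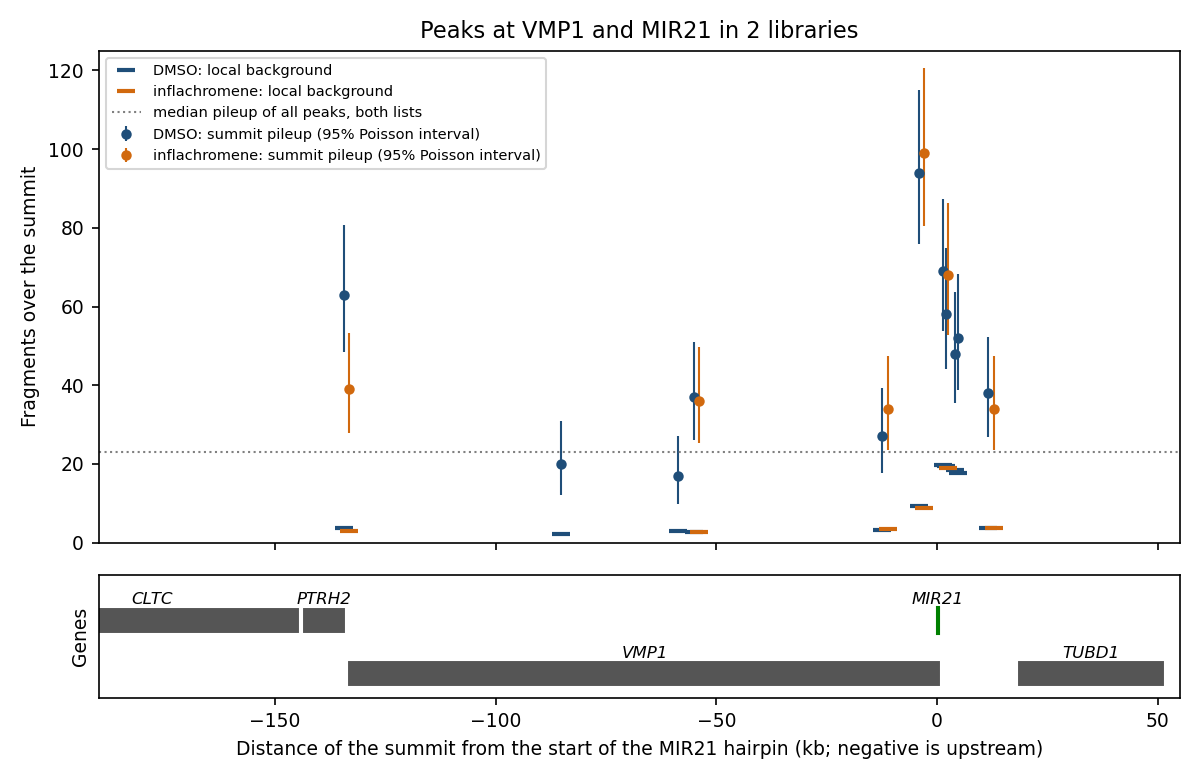
Summit pileup (points, with 95% Poisson intervals) and local background (short bars) of the 11 DMSO and 6 inflachromene peaks against distance from the MIR21 hairpin, with the genes drawn to scale below (MIR21, in green, widened to be seen); the libraries are set 1.2 kb apart so that they can be told apart. The highest points, 94 and 99 fragments, lie just upstream of MIR21, and the backgrounds are highest just downstream of it.

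At the start of VMP1 the peak was lower in the inflachromene library than in DMSO. The summit held 63 fragments in DMSO (48.4 to 80.6), at 13.9-fold, and 39 in inflachromene (27.7 to 53.3), at 10.1-fold. The ratio of inflachromene to DMSO was 0.619 (0.404 to 0.937), the only one of the locus whose interval lay below 1. It also held 0.833, the median over all 9796 shared peaks, so the ratio could not be told from that of a typical shared peak. VMP1 and PTRH2, the gene of a mitochondrial peptidyl-tRNA hydrolase, start 224 bp apart and point away from each other. The DMSO summit lay between them, 112 bp from each start, and the inflachromene summit lay 179 bp before the VMP1 start and 45 bp before that of PTRH2. The peak (59707402 to 59707834 in DMSO, 59707354 to 59707707 in inflachromene) can therefore be credited to neither gene alone. At 63 fragments it exceeded 93.9% of all DMSO peaks.

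The 300-base start window of VMP1 (chr17:59707404-59707703, plus strand, GRCh38.p14) is shown because both peaks covered all of it. The DMSO summit is base 139 and the inflachromene summit base 72, the PTRH2 start is base 27 and the VMP1 start base 251. Capitals mark an ETS motif, CCGGAAGT, joined with 1 shared base to the core of the cyclic AMP response element, TGACGT.
VMP1 start window: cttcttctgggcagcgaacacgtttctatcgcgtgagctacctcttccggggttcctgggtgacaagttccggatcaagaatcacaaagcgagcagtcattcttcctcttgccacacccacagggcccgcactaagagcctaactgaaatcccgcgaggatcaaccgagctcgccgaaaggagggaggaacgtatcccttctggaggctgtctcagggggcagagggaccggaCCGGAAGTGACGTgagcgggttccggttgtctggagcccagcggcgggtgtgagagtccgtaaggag
Searched on both strands, CCGGAAGT was found in 4.14% of 35116 such windows and TGACGT in 7.98%, once each in this window. The joined run CCGGAAGTGACGT was in 36 windows (0.103%). The window held no AP-1 motif TGANTCA (7.71% of windows), GC box GGGCGG (45.0%), CCAAT box (34.6%) or TATA box TATAAA (11.5%). Its GC content was 59.3%, against a median of 58.7%. These are matches of letters and show no binding.

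Inside VMP1, away from the hairpin, DMSO had 4 peaks and inflachromene 2. The summit 84736 bp upstream of MIR21 (59756408 to 59756691) held 20 fragments in DMSO (12.2 to 30.9), at 6.74-fold. The summit 58139 bp upstream (59782998 to 59783187) held 17 (9.90 to 27.2), at 4.70-fold. Neither had an inflachromene peak, and they were the only members below the median pileup of their list. At the same background the highest p-value kept in the inflachromene list (−log10 p of 5.88) would have asked for 12 and 14 fragments there.

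The other members of the gene body were called in both libraries. The summit 54589 bp upstream of MIR21 (59786485 to 59786917) held 37 fragments in DMSO (26.1 to 51.0) and 36 in inflachromene (25.2 to 49.8), a ratio of 0.973 (0.598 to 1.58). The summit 11788 bp upstream (59829362 to 59829589) held 27 in DMSO (17.8 to 39.3) and 34 in inflachromene (23.5 to 47.5), a ratio of 1.26 (0.737 to 2.17). Its summits lay 1 bp apart. At both sites the interval of 1 library overlapped that of the other. The tables used here give spans of genes but no exons, so introns and exons were not told apart.

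The strongest member of both lists lay upstream of the MIR21 hairpin and was not lower with inflachromene. In DMSO the peak (59837605 to 59838084) had its summit 3420 bp upstream of the hairpin and 4409 bp before the end of VMP1, with 94 fragments (76.0 to 115) at 9.25-fold. In inflachromene (59837605 to 59838051) the summit lay 3468 bp upstream, with 99 fragments (80.5 to 121) at 10.2-fold. The ratio was 1.05 (0.786 to 1.41). That interval held both 1 and the median of all shared peaks. Among 15186 DMSO peaks this pileup ranked 227, and among 10836 inflachromene peaks it ranked 97. Its fold enrichment was less extreme, above 65.1% of the DMSO list and 77.1% of the inflachromene list, as the local background there was high (9.27 and 8.83 fragments per base).

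Beyond the 3′ end of VMP1 the DMSO list had a row of 4 peaks with high pileup and very low fold enrichment, drawn to scale in the plot of called peaks around the hairpin. Their summits lay 997, 1625, 3567 and 4316 bp past the end of VMP1. They held 69 (53.7 to 87.3), 58 (44.0 to 75.0), 48 (35.4 to 63.6) and 52 fragments (38.8 to 68.2). The fold enrichments were 3.37, 2.88, 2.53 and 2.84, and at most 0.448% of the list lay below any of them. The backgrounds were 19.8, 19.5, 18.4 and 17.7 fragments per base, close to the median summit of the whole list. The 4 peaks stood between 59842795 and 59846719, a span of 3925 bp, of which they covered 1533 bp.

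The inflachromene list had a single wide peak in that stretch. It ran from 59842800 to 59844302, 1503 bp, with a summit 994 bp past the end of VMP1, 68 fragments (52.8 to 86.2), 3.48-fold enrichment and a background of 18.8. Only 7 inflachromene peaks were wider. It overlapped the first 2 DMSO peaks of the row, which are 261 bp apart. Its summit lay 3 bp from that of the first, and the ratio was 0.986 (0.695 to 1.40). Against the second DMSO peak, 631 bp from this summit, the ratio was 1.17 (0.814 to 1.69), which sets different positions against each other. The last 2 DMSO peaks of the row (59845699 to 59845852 and 59846483 to 59846719) had no inflachromene peak. At their DMSO backgrounds a call in inflachromene would have asked for at least 42 and 41 fragments, against the 48 and 52 seen in DMSO. The first was 154 bp wide, and the narrowest peak of the inflachromene list was 165 bp. The median ratio over all shared peaks was 0.833. The inflachromene pileup there has no value here, and why no peak was called was not tested. The bases covered, 1533 bp by the 4 peaks and 1503 bp by the 1, were close in total but only partly the same. The inflachromene peak took in the 261 bp between the first 2 DMSO peaks and none of the last 2.

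**Figure D2:**
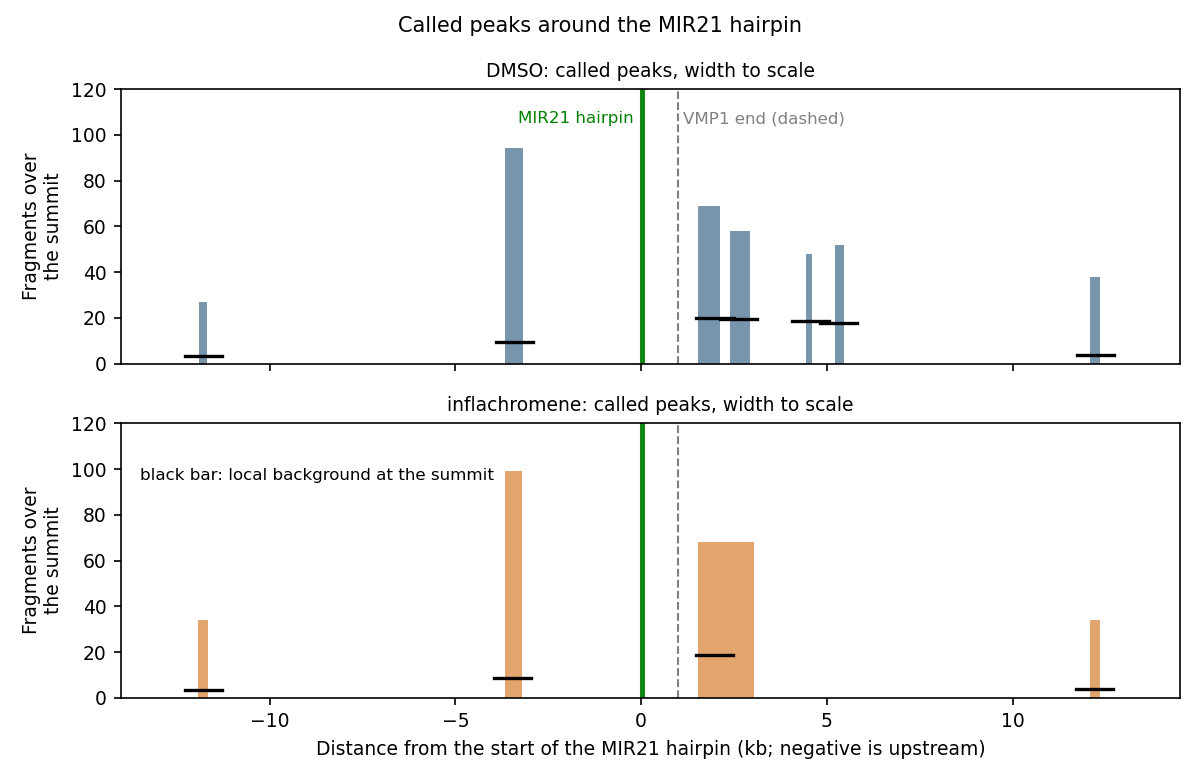
Called peaks within about 14 kb of the MIR21 hairpin in DMSO (upper) and inflachromene (lower), with width to scale and height the summit pileup; black bars mark the local background, the green line the hairpin and the dashed line the end of VMP1. The row of 4 DMSO peaks downstream of the hairpin faces a single inflachromene peak of 1503 bp, at backgrounds of 17.7 to 19.8.

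Farther downstream, 11252 bp past the end of VMP1 and between it and the 3′ end of TUBD1, the gene of delta-tubulin, a peak was called in both libraries. It (59853351 to 59853611) held 38 fragments in DMSO (26.9 to 52.2) and 34 in inflachromene (23.5 to 47.5), a ratio of 0.895 (0.546 to 1.46). Its background, 3.77 in DMSO and 3.84 in inflachromene, was far below that of the row of peaks, although its 10 kb window overlaps that of the last peak of the row.

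By summit pileup the pairs of the locus were on the whole nearer to equal between the libraries than other shared peaks, with the start of VMP1 as the exception. The plot of ratios gives all 7 pairs, in which the wide inflachromene peak enters with both of the DMSO peaks it overlaps. The median ratio was 0.986, against 0.833 over all shared peaks, whose middle 50% ran from 0.710 to 1. By fragment ends in the 10 kb windows the locus was close to the rest, with a median ratio of 0.889 against 0.872. In 3 of the 7 pairs the pileup was higher in inflachromene, against 20.2% of all shared peaks. Of the 4 pairs with a mean pileup of 50 or more, 2 were higher, against 10.9% of such peaks. Those 2 include the pair with distant summits, and 7 values are too few to set a share apart. All but the start of VMP1, 6 of 7, lay above the median of all shared peaks, but all 7 intervals held that median, so no member stood apart from it beyond counting error.

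Counting each inflachromene peak once, 6 pairs summed to 328 fragments in DMSO and 310 in inflachromene. The ratio of these sums was 0.945 (0.807 to 1.11), which held the ratio of sums over all shared peaks, 0.825. For the median over all 7 pairs, 0.986, the side of 1 on which it fell depended on the scale. That median was 1.02 after division by the ratio of fragment numbers and 1.03 for fold enrichment in place of pileup. No median over all shared peaks is given on these scales.

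**Figure D3:**
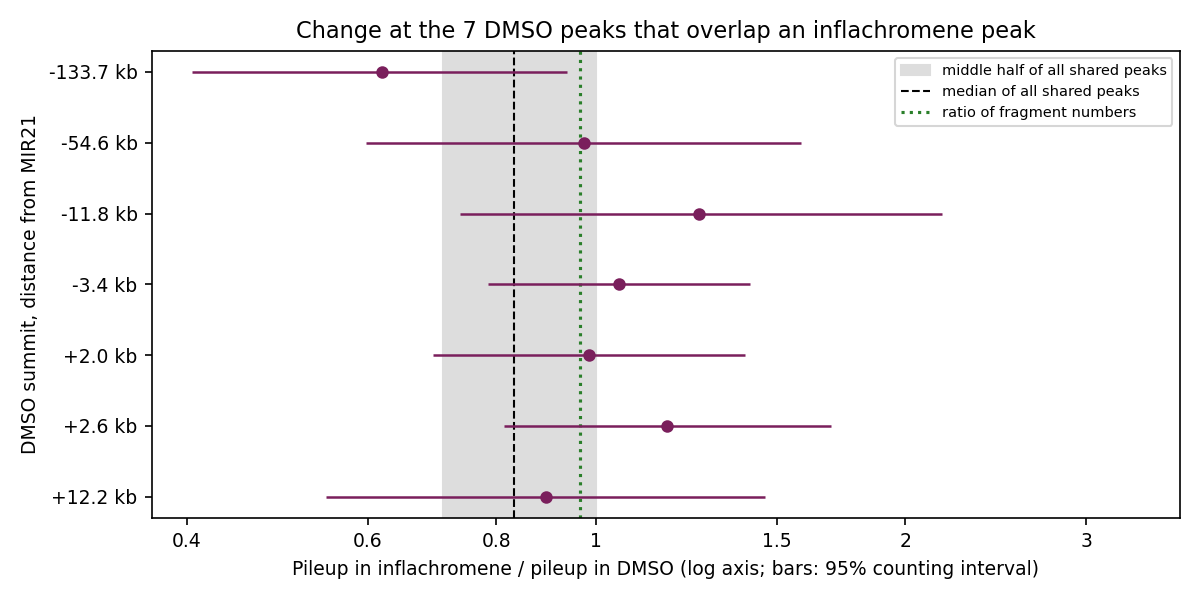
Ratio of inflachromene to DMSO pileup (log axis) with 95% counting intervals at the 7 DMSO peaks that overlap an inflachromene peak, named by the distance of the DMSO summit from MIR21; the grey band is the middle 50% of all shared peaks, the dashed line their median of 0.833 and the dotted line the ratio of fragment numbers, 0.964. The start of VMP1, 0.619, lies lowest, and every interval crosses the dashed line.

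The local background set the stretch just past the end of VMP1 apart from the rest of the locus. Every member stood above the median background of its list. At the start and in the body of VMP1 backgrounds ran from 2.12 to 3.60 in DMSO and from 2.73 to 3.41 in inflachromene, leaving out the site just upstream of the hairpin. The member farthest downstream had 3.77 in DMSO and 3.84 in inflachromene. The row of 4 DMSO peaks lay above the 99th percentile of 10.6, with ranks of 50 to 62 among 15186, and the wide inflachromene peak above that of 10.5, with rank 37. On the assumed reading the 10 kb windows of those 4 peaks overlap, so their backgrounds are not separate measurements. The site upstream of MIR21 lay above the 95th percentile in both lists. Outside the locus, 15 DMSO peaks within 1 Mb had a median background of 1.30 and none above 3.47, and for 8 inflachromene peaks these values were 1.75 and 3.36. Between called peaks the background has no value here.

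If the background comes from the same library, the windows of neighbouring summits place part of the extra signal beyond the gene. The background steps were read as single fragment ends in 10 kb, by which the window at the first DMSO peak of the row held 2596 ends and that at the upstream site 1217. At least 1379 ends must then lie in the 5406 bp covered by the former alone, 59842847 to 59848252. That is a mean coverage of at least 19.4 fragments per base. In inflachromene the counts were 2275 and 1066, leaving at least 1209 ends in 5451 bp and a mean coverage of at least 18.4. All of this stretch lies past the annotated end of VMP1. The ratio of inflachromene to DMSO ends was 0.876 at both summits, near the 0.872 that was the median over all shared peaks, whereas at the start of VMP1 it was 0.751 (355 against 473 ends). No input library was analysed here, and with a control behind the background these counts would not be ends of the ChIP library.

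High backgrounds of this size were rare but not particular to the locus. The highest 1% of DMSO backgrounds, 152 peaks, fell into 66 groups with summits at most 10 kb apart, and 69 of the peaks lay on chromosome 19. By its highest background the group at MIR21 ranked 18 of 66 in DMSO and 8 of the 37 groups on other chromosomes. In inflachromene it ranked 14 of 52, and 5 of 26 on other chromosomes. Of those 152 DMSO peaks, 19.1% had no inflachromene peak, against 2 of the 4 in the row at MIR21.

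**Figure D4:**
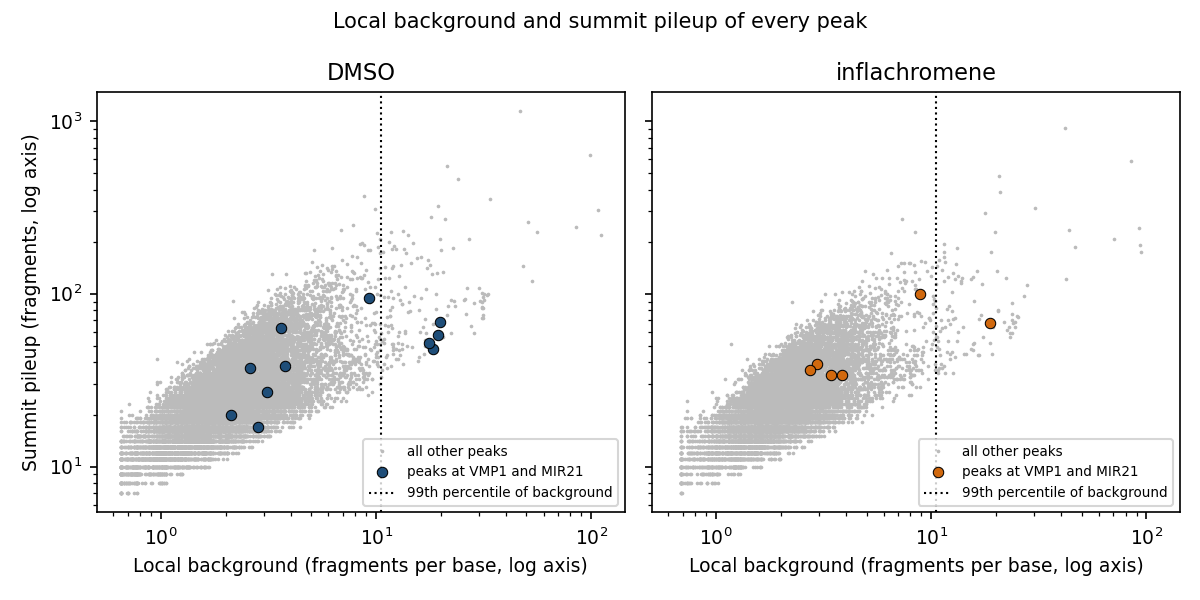
Summit pileup against local background (both log axes) for every peak of each list in grey and the locus members in colour, with the 99th percentile of background as a dotted line. The DMSO row beyond VMP1 and the wide inflachromene peak lie right of that line, with 48 to 69 fragments at backgrounds of 17.7 to 19.8.

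VMP1 held more peaks inside its span than most genes of its size. The locus was picked with earlier results of these lists in view, so its place among genes is a description only. With 5 DMSO summits it was among 44 of 19974 protein-coding genes (0.220%) with at least as many. Of 1231 genes within 20% of its length, 2 did so (0.162%), and 478 had any. In inflachromene it had 3, a number that 0.611% of protein-coding genes and 18 of the 1231 genes of similar length reached. The genes with the most DMSO summits were PRKAG2, GPHN and DLGAP1 with 8 each and ACTN4, GRK5, ANXA8 and ABR with 7. Of these all but ACTN4, an actin crosslinker gene of 83941 bp, are longer than VMP1. Of the 5 bound genes nearest in length, TXNRD1, the gene of cytosolic thioredoxin reductase, had 6 DMSO and 4 inflachromene summits, NGEF 2 and 2, LARP1 and SLC9B1 1 and 1, and SUSD1 1 and 0.

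Among microRNA genes, MIR21 had one of the strongest upstream peaks, which again describes a locus picked with these lists in view. Of 1558 hairpins, 312 (20.0%) had a DMSO peak and 269 an inflachromene peak within 10 kb upstream, with a median DMSO pileup of 29.5 at the strongest. With 94 fragments in DMSO 11 hairpins reached the level of MIR21, itself included, and with 99 in inflachromene 5 did. MIR210, whose RNA is known for its induction by hypoxia, had an equal DMSO pileup of 94 and 97 in inflachromene, at a summit 7956 bp upstream. The highest, 634 and 588 fragments, was near MIR4530 on chromosome 19. Many hairpins lie close to unrelated gene starts, so such a peak need not belong to the microRNA. MIR590, which shares the seed, had no peak within 10 kb upstream in either list.

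Genes that act with VMP1 in early autophagy had peaks in most cases. Of 25 such genes, 22 (88.0%) had a DMSO peak within 1000 bp of an end, against 45.8% of protein-coding genes, and 20 had one in both lists. This set of genes and those below were chosen with earlier results of these data known, so their shares are descriptions only. ATG14 and PIK3C3, subunit genes of the lipid kinase that marks the site of autophagosome formation, had a peak in DMSO alone (13 and 18 fragments), or 2 of 22 against 20.2% of protein-coding genes with a DMSO peak. TMEM41B, encoding the scramblase related to VMP1, had 81 and 56 fragments. ATG2A, for a lipid transfer protein, had 92 and 81, and ZFYVE1, for a marker of the omegasome, 64 and 59. WIPI1, for a phosphoinositide-binding protein, had 42 and 18. The pileup was higher in inflachromene at 3 of the 20 genes, against 18.2%, and the median ratio was 0.844, against 0.821 over all protein-coding genes with both peaks.

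For factors reported to act at the MIR21 promoter, 9 of 11 genes had a DMSO peak within 1000 bp of an end. The share of protein-coding genes was 45.8%. All 9 had an inflachromene peak as well, where 20.2% of protein-coding genes with a DMSO peak had none. ETS1 and NFIB had no peak within 1000 bp of an end in either library. The AP-1 subunit genes JUN (144 and 118 fragments) and FOSL1 (150 and 126) were highest, followed by STAT3, encoding a cytokine-responsive factor (102 and 72). JUNB, another AP-1 subunit gene, had 35 and 43. The median ratio was 0.819, against 0.821 over all protein-coding genes with both peaks. JUNB was the only one of the 9 with a higher pileup in inflachromene, against 18.2% of those genes.

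Of 12 genes known as targets of microRNA-21, 7 (58.3%) had a DMSO peak, against 45.8% of protein-coding genes, and 5 had one in both lists. PDCD4, encoding an inhibitor of translation, had 46 and 36 fragments, and TGFBR2, a TGF-beta receptor gene, 62 and 56. RECK and BCL2 had a peak in DMSO alone, with 24 and 12 fragments, or 2 of 7 against 20.2% of protein-coding genes with a DMSO peak. Of the 12 genes that make or load microRNAs, 9 had a DMSO peak, against the same 45.8%, and 8 had both peaks (AGO1 and AGO3 through the same peak). All 8 were lower in inflachromene, where 18.2% of protein-coding genes with both peaks were higher, and the median ratio was 0.765 against 0.821. DROSHA and DICER1, for the RNases that cut primary and precursor microRNAs, had 27 and 20 and 30 and 25 fragments. PRKRA, for a partner of Dicer, had 61 and 27. XPO5, the exporter gene, had a peak in DMSO alone (22), or 1 of 9 against 20.2% of protein-coding genes with a DMSO peak. AGO4 had a peak in inflachromene alone (11), for which no share over all genes is given here.

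Of 23 other microRNA host genes, 14 had a DMSO peak, against 30.7% of protein-coding and lncRNA genes, and 12 had both. All 12 were lower in inflachromene, against 18.2% of genes with both peaks that were higher. Their median ratio was 0.723, against 0.824 over all protein-coding and lncRNA genes with both peaks. MIR23AHG had 108 and 97 fragments, MIR22HG 97 and 70, MIR31HG 73 and 63 and MIR210HG 61 and 41. MIR17HG (18) and MIR193BHG (24) had a peak in DMSO alone, or 2 of 14 against 21.3% of protein-coding and lncRNA genes with a DMSO peak. The peak upstream of MIR21, at 94 and 99, had a ratio above each of the 12, though the difference was not tested. Its interval, 0.786 to 1.41, reached below the highest of them, 0.903. That peak lay 4409 bp before the end of VMP1, whereas the 12 lay within 1000 bp of a gene end. The peak at the start of VMP1, the like position, had a ratio of 0.619, within their range of 0.613 to 0.903. For 27 of the 61 genes in these lists with a DMSO peak, PRKRA, ATG2A, XPO5 and MIR22HG among them, the strongest peak was within reach of a second gene's end as well.

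**Figure D5:**
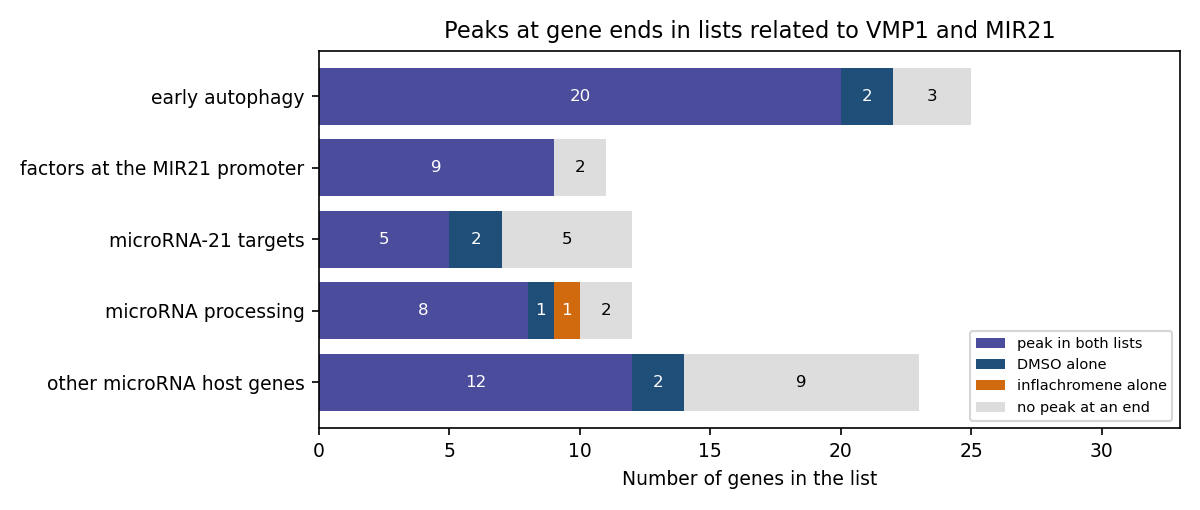
Number of genes in each of 5 lists with a peak within 1000 bp of an end in both libraries, in 1 library alone or in neither. The autophagy list has 20 of 25 genes with both peaks, and the list of other microRNA host genes 12 of 23.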

How the data were processed

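Each of the 2 libraries was a deposited peak list. Per the submitters' processing notes, the authors' tools include MACS2 and deepTools 3.5.6, and the build was hg38. The aligner, duplicate handling, control and pooling are not stated in the sources used here. The deposited columns are the summit's fold enrichment (a ratio), its −log10 p-value and q-value (lowest −log10 q 3.02 in DMSO and 3.01 in inflachromene), the summit offset and the authors' integer score, which was the whole part of 10 times the −log10 q for 15185 of 15186 DMSO and all inflachromene peaks and was not used further. Peaks on chromosomes 1 to 22 and X were kept, 15186 of 15354 and 10836 of 10991.

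The pileup k and background b were solved from fold = (k + 1)/(b + 1) and the Poisson probability of exceeding k. A whole k matched the deposited −log10 p within 0.001 for every peak, and in 2000 of 2000 simulated summits made with the same formulas, which are inferred, as is the reading of b as coverage of the same library. The background's steps gave fragment lengths of 152 bp (DMSO) and 166 bp (inflachromene).

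Peaks were shared when they overlapped by at least 1 bp, and the strongest partner was used. Genes, starts and sequences came from RefSeq GRCh38.p14, which shares hg38's coordinates, and all symbols of the 5 lists matched; a few listed genes are not reported here. The named genes were VMP1, MIR21, the genes within 50 kb of either, the lists, and genes like VMP1 in number of summits (the first 5 and ties) or in length (the nearest 5). The members and lists were chosen with earlier results of these data known. With 1 library per treatment no test was made. Python 3.11.15, SciPy 1.17.1 and pandas 2.3.3 were used. Stricter thresholds, other overlaps, windows and scalings were tried as alternatives.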

Additional observations from a re-analysis of the deposited data

How the results depend on the processing

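No paired analysis was possible because each treatment had 1 library, and for the same reason no library could be left out. Of 30 alternatives, 23 stayed within counting error of the value given or within 1.5 times a count. Restricted to summits inside VMP1, the locus had 5 DMSO and 3 inflachromene peaks, and the median DMSO background fell from 3.77 to 2.83. Within 100 kb the median inflachromene background was 3.18 in place of 3.62. The median ratio of pileups, 0.986, passed 1 when divided by the ratio of fragment numbers (1.02) and for fold enrichment (1.03); with the ratio of lowest backgrounds, added after the data were seen, it was 0.940. With VMP1 extended by 5000 bp past its end, also added later, 9 DMSO peaks lay inside. The share of DMSO peaks with an inflachromene peak ranged from 45.5% (overlap of 50%, reciprocally) to 85.7% (6 of 7, lists of equal length). No share over all peaks under the same setting is given beside either value. Few members and pileups of 17 to 99 limit every share and ratio here.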
